A study of Homo sapiens with 2 samples.

Results

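SNARE proteins and the factors that act on them make up the machinery by which transport vesicles merge with their target membranes. In the table of this study, 44 of 13075 genes belonged to it by name. They were the VAMP, syntaxin (STX), syntaxin-binding (STXBP), SNAP and synaptotagmin (SYT) genes whose symbol is the stem followed by digits and at most 1 letter, together with NSF, NAPA, NAPB, NAPG, SEC22B, YKT6, GOSR1, GOSR2, BET1, VTI1A and VTI1B. The rule uses names only, but the members, and the roles and lists used below, were chosen with earlier results of these data known. Both libraries came from HEK293 cells, a human embryonic kidney line, at passage 15, transfected to make the topoisomerase TOP3B with a FLAG tag and the R338W substitution. The RIP (RNA immunoprecipitation) library held RNA recovered from their native lysate with the monoclonal M2 antibody against FLAG, and the input library held RNA of the same kind of transfected cells with no antibody step. Each group had 1 library, so every difference below is a difference between 2 libraries, has no replicate check and carries no p-value. Both groups contained the tagged protein, the labels name no deletion of the cells' own TOP3B gene, and an anti-FLAG RIP from untransfected cells was not analysed here.

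TOP3B relaxes DNA and also acts on RNA, forming a brief covalent bond with the strand it cuts, and the R338W form is known to stay attached to its substrate. The series title names the RNAs that carry such attached enzyme as its subject. A SNARE is a small protein, usually anchored in a membrane by its tail, whose SNARE motif zips up with those of its partners into a helical bundle that pulls the vesicle and its target together. The bundle takes 1 helix each of the Qa, Qb, Qc and R classes. Syntaxins supply Qa helices, VAMPs and their relatives supply R helices, and the SNAP25 family supplies Qb and Qc helices from a single chain. SM proteins (Sec1/Munc18 family) clasp syntaxins and guide assembly, NSF and its SNAP adaptors pull spent bundles apart, and synaptotagmins tie release to calcium. Neurons use the system for transmitter release, and every cell uses other members for traffic between the endoplasmic reticulum (ER), the Golgi, endosomes, lysosomes and the cell surface.

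The values are FPKM, that is, fragments per kilobase of transcript at a common library total. The bait's own transcript stood at 30666 FPKM in RIP, against 15062 FPKM in input. Depth, estimated from the steps between low values, was about 24700000 RIP fragments and 15100000 input fragments. All 8 listed HEK293 markers had values, among them VIM at 679 FPKM in RIP and 544 FPKM in input. Values were also held for 2 of 7 markers of mature neurons (MAP2 and GAD1), 1 of 5 of kidney tubule, 1 of 5 of blood and 0 of 3 of liver. The ratio used throughout is log2((RIP + 1)/(input + 1)), which understates differences of low genes, and genes reaching 5 FPKM in either library were compared. Of the 44 members, 40 passed this floor. Their estimated fragments numbered 70 to 2018 in RIP and 35 to 1155 in input.

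As a whole, the 40 genes lay where coding genes in general lay. Their median ratio was 0.13, with quartiles of -0.14 and 0.44, which is the median of all 11990 genes past the floor (0.13, quartiles -0.25 and 0.50) and close to that of the 10513 protein-coding ones (0.15, quartiles -0.20 and 0.49). Only STX1A was at least 2-fold higher in the RIP, 1 of 40 or 2.50%, against 4.90% of all genes and 3.65% of protein-coding genes. None was at least 2-fold lower, against 2.50% of all genes and 0.533% of protein-coding genes. At a 1.5-fold limit 6 members were higher (15.0%, against 19.9% of all genes and 19.2% of protein-coding genes) and 4 were lower (10.0%, against 10.2% and 7.01%). Both shares lie near their backgrounds, so neither count sets the members apart. Among the members, 24 had a ratio above 0 and 16 below, and 20 lay on each side of the median gene. Over all 11990 genes past the floor 7040 had a ratio above 0 and 4941 below, and over the 10513 protein-coding ones 6390 and 4114. The sign of a ratio depends on the scaling. All ratios drop by 0.13 when centred on the median gene, which leaves 365 genes at least 2-fold higher and 450 lower over the whole table, and rescaling to summed protein-coding FPKM leaves 308 higher and 498 lower, against 588 and 300 as deposited. The members' median was then 0.00 and -0.04, and STX1A had ratios of 1.08 and 1.04. In a bulk lysate, a transcript bound in more cells and one bound more often per copy cannot be told apart. Summed over the 40 genes, the level was 1153.2 FPKM in RIP, against 1023.9 FPKM in input.

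Within the family the classes differed, as a description without a test. The Qa syntaxins (8 of 10) and the syntaxin-binding proteins (4 of 5) lay mostly above the median gene, STX17 and STX12 only just. The vesicle-side R-SNAREs lay mostly below it (6 of 7). The 6 members past the 1.5-fold limit on the high side included STX1A, STX3, STX16, STXBP4 and VTI1A, and the 4 on the low side were BET1, VAMP7, VAMP3 and SEC22B. The plot of levels gives both values of each gene named here.

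**Figure D1:**
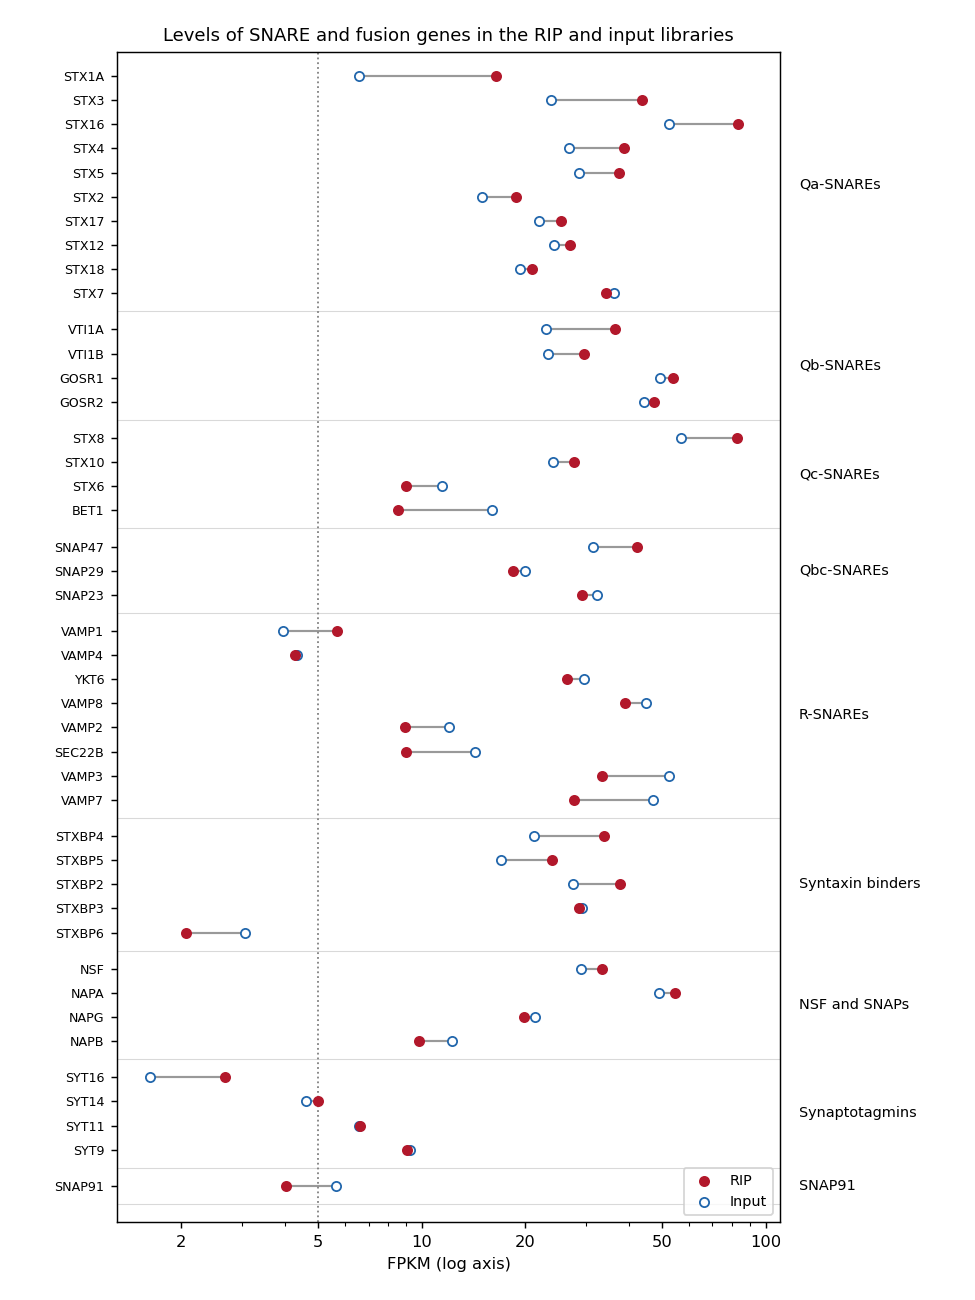
Level of each gene of the family named in the text, in FPKM (log axis), with a filled red point for the RIP, an open blue point for the input and a line joining them. Rows are grouped by role and ordered by ratio, and the dotted line marks the floor of 5 FPKM. STX1A has the widest gap with the RIP on the right, and BET1, VAMP7 and VAMP3 have wide gaps with the RIP on the left.

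The syntaxins that supply the Qa helix lay mostly above the input. Of 10, all past the floor, 9 had a ratio above 0 (8 after centring, 7 after rescaling), against 7040 of all 11990 genes as deposited. Their median was 0.35, with a range of -0.08 to 1.21. STX1A, the syntaxin of synaptic vesicle release, stood at 16.4 FPKM in RIP, against 6.55 FPKM in input, a ratio of 1.21. That placed it at rank 128 of 10513 protein-coding genes, ordered from the highest ratio. Its values rested on about 224 RIP fragments and 55 input fragments, and only VAMP1 had fewer in the input among the 40. STX1A lies at chr7:73699206-73719672 on the minus strand (GRCh38, the assembly also called hg38) and overlaps WBSCR22 on the other strand, which had 29.2 FPKM in RIP, against 37.6 FPKM in input. The kit keeps strand, but whether the counting used it is not given in the sources used here, so reads of the pair may not have been told apart.

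The other plasma membrane syntaxins were higher in the RIP by less. STX3, which serves apical delivery in epithelia and release at ribbon synapses, stood at 43.7 FPKM in RIP, against 23.7 FPKM in input (ratio 0.85, rank 775). STX4, the syntaxin through which fat and muscle cells insert glucose transporters, stood at 38.7 FPKM in RIP and 26.8 FPKM in input (ratio 0.51). STX2, also of the plasma membrane, stood at 18.8 FPKM in RIP and 14.9 FPKM in input (0.31). The stretches below encode the same part of the SNARE motif in the 3 plasma membrane syntaxins with the highest ratios, and show how far genes of 1 class that all lay above the input differ. They come from the GENCODE 29 transcripts of STX1A (chromosome 7, minus strand, coding bases 595 to 684), STX3 (chromosome 11, plus strand, 592 to 681) and STX4 (chromosome 16, plus strand, 619 to 708), and capitals mark the bases that are not the same in all 3.
STX1A: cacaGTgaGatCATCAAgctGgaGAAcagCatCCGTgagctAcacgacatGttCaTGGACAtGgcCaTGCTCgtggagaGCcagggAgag
STX3: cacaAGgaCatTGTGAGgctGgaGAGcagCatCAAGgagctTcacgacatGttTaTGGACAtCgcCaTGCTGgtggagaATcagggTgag
STX4: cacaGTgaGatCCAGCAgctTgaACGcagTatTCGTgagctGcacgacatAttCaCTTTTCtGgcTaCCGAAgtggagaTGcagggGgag
Of the 90 bases, 53 were shared by all 3 genes and 37 were not. STX1A shared 80.0% of these bases with STX3 and 70.0% with STX4, and the longest identical run anywhere in the coding parts was 15 bases for both pairs.

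The syntaxins of inner membranes ranged from well above the input to just below it. STX16, which receives endosomal carriers at the trans-Golgi network, stood at 83.3 FPKM in RIP, against 52.3 FPKM in input (ratio 0.66), the highest RIP level of any member. STX5, the Golgi syntaxin, stood at 37.4 FPKM in RIP and 28.6 FPKM in input (0.38), and STX17, which is recruited to finished autophagosomes, at 25.4 FPKM in RIP and 21.9 FPKM in input (0.20). STX12 of recycling endosomes stood at 27.0 FPKM in RIP and 24.3 FPKM in input (0.14), and STX18 of the ER at 20.9 FPKM in RIP and 19.3 FPKM in input (0.11). STX7, the late endosomal syntaxin, was the exception in the class, at 34.2 FPKM in RIP, against 36.1 FPKM in input (-0.08). STX17, STX12, STX18 and STX7 lie close to the median gene, and with 1 library a group they cannot be placed above or below it.

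The R-SNAREs, carried mostly by the vesicle, ran the other way. Of 8 genes 7 passed the floor, and 6 of them had a ratio below 0. Centring and rescaling raise no ratio, so these 6 stay below 0 under both by construction. As deposited, 4941 of all 11990 genes lay below 0. The R-SNARE median was -0.38, with a range of -0.74 to 0.43. VAMP7, a late endosomal R-SNARE with a longin domain that is resistant to tetanus toxin, stood at 27.7 FPKM in RIP, against 46.9 FPKM in input (ratio -0.74, rank 10170 of 10513 coding genes). VAMP3, the cellubrevin of recycling vesicles, stood at 33.4 FPKM in RIP and 52.5 FPKM in input (-0.64). SEC22B, the longin R-SNARE of traffic between ER and Golgi, stood at 8.98 FPKM in RIP and 14.2 FPKM in input (-0.61). VAMP7, VAMP3 and SEC22B rested on about 377, 649 and 978 RIP fragments, against 224 for STX1A.

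The remaining R-SNAREs lay nearer to the input. VAMP2, the main synaptobrevin of brain synapses, stood at 8.96 FPKM in RIP, against 12.0 FPKM in input (ratio -0.38). VAMP8, the endobrevin of endosomes, lysosomes and secretory granules, stood at 39.1 FPKM in RIP and 44.9 FPKM in input (-0.20), and YKT6, which holds to membranes by lipid anchors in place of a membrane span, at 26.4 FPKM in RIP and 29.6 FPKM in input (-0.16). VAMP1, the synaptobrevin of neuromuscular junctions, was the only R-SNARE above the input, at 5.67 FPKM in RIP, against 3.94 FPKM in input (0.43), and it reached the floor in the RIP alone. It had the fewest estimated input fragments of the 40 members, with 82 in RIP and 35 in input. VAMP4 of the trans-Golgi network was under the floor at 4.29 FPKM in RIP and 4.35 FPKM in input.

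VAMP1 and VAMP2 are close relatives, and their sequences are set beside that of VAMP3. Their ratios had opposite signs, but VAMP1 reached the floor in the RIP alone, on about 82 RIP and 35 input fragments. The floor itself favours a high ratio for it, and the sign of its ratio is uncertain. The stretches encode the start of the SNARE motif, from the GENCODE 29 transcripts of VAMP1 (chromosome 12, minus strand, coding bases 103 to 192), VAMP2 (chromosome 17, minus strand, 97 to 186) and VAMP3 (chromosome 1, plus strand, 46 to 135). Capitals mark the bases that are not the same in all 3.
VAMP1: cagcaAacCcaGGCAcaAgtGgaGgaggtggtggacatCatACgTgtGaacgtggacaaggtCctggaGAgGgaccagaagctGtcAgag
VAMP2: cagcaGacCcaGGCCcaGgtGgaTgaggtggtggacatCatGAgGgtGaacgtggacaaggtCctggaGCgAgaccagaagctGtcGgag
VAMP3: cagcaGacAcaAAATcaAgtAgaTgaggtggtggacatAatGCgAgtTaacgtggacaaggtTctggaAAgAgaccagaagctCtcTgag
Of the 90 bases, 70 were shared by all 3, against 53 in the syntaxins. VAMP1 and VAMP2 were identical at 88.9% of these bases, VAMP2 and VAMP3 at 82.2% and VAMP1 and VAMP3 at 81.1%. The longest identical run in the coding parts was 24 bases, between VAMP1 and VAMP2, which is shorter than the 50-base words used below to look for shared sequence.

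The Qb, Qc and Qbc genes held members on both sides. All 4 Qb-SNAREs had ratios above 0, with a median of 0.23 as deposited, but 2 of the 4 lay below 0 after centring or rescaling. VTI1A, which works between endosomes and the trans-Golgi network, stood at 36.3 FPKM in RIP, against 23.0 FPKM in input (0.64), and VTI1B of late endosomes at 29.7 FPKM in RIP and 23.3 FPKM in input (0.34). The Golgi Qb-SNAREs GOSR1 and GOSR2 lay at the median gene, at 53.6 FPKM in RIP and 49.3 FPKM in input (0.12) and at 47.4 FPKM in RIP and 44.3 FPKM in input (0.10). Among the 4 Qc-SNAREs the ratios spread from -0.83 to 0.53 around a median of -0.06. STX8, a late endosomal Qc-SNARE, stood at 82.4 FPKM in RIP, against 56.8 FPKM in input (0.53), and STX10 of the trans-Golgi network at 27.6 FPKM in RIP and 24.1 FPKM in input (0.19). STX6, which acts between endosomes and the trans-Golgi network, stood at 8.99 FPKM in RIP and 11.4 FPKM in input (-0.32).

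BET1 had the lowest ratio of all members. This Qc-SNARE of ER to Golgi vesicles (chr7:93962762-94004382, minus strand, GRCh38) stood at 8.52 FPKM in RIP, against 16.0 FPKM in input, a ratio of -0.83 and rank 10308 of 10513 coding genes, on about 145 RIP and 167 input fragments. The Qbc genes of the SNAP25 family were closer together. SNAP47, a broadly expressed relative without membrane-anchoring cysteines, stood at 42.1 FPKM in RIP, against 31.4 FPKM in input (0.41). SNAP29, which joins STX17 on autophagosomes, stood at 18.4 FPKM in RIP and 19.9 FPKM in input (-0.11), and SNAP23, the counterpart of SNAP25 outside neurons, at 29.3 FPKM in RIP and 32.3 FPKM in input (-0.14). SNAP25 itself was not analysed here.

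**Figure D2:**
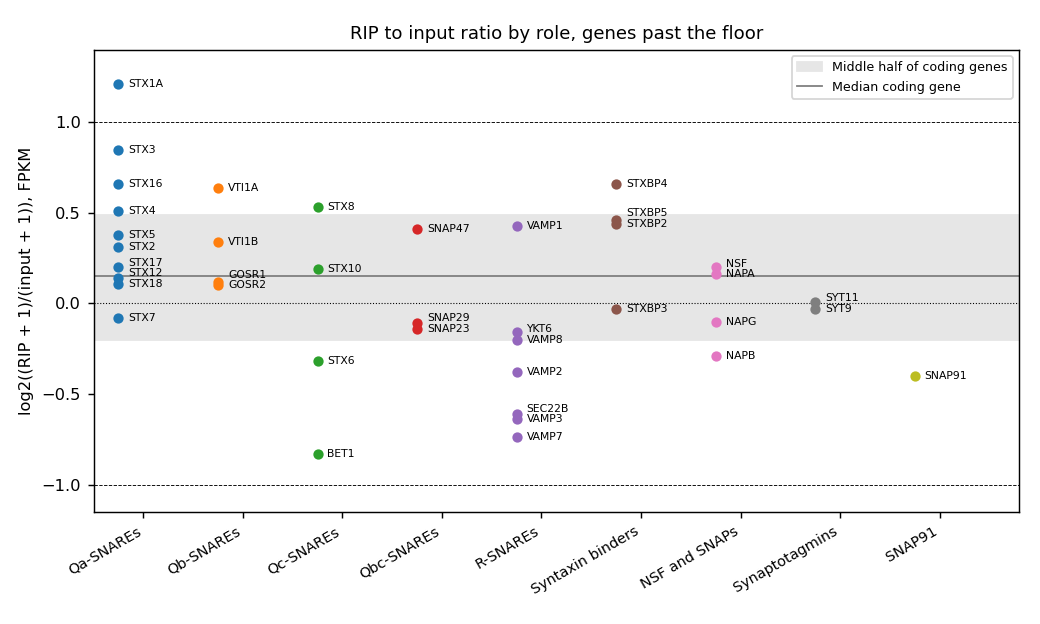
Ratio of RIP to input, log2((RIP + 1)/(input + 1)), for the genes named in the text that passed the floor, by role. The grey band spans the quartiles of protein-coding genes (-0.20 to 0.49), the grey line their median (0.15), and the dashed lines 2-fold. The Qa-SNAREs run from -0.08 to 1.21, and 6 of the 7 R-SNAREs lie below 0.

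The proteins that clasp or decoy syntaxins lay mostly above 0, as the Qa syntaxins did. Of 6 genes 5 passed the floor, 4 of these had ratios above 0 under each scaling tried, and the median was 0.46. STXBP4, which binds STX4, stood at 33.9 FPKM in RIP and 21.1 FPKM in input (0.66), and STXBP5, the tomosyn that occupies syntaxins with an R-SNARE-like tail, at 23.9 FPKM in RIP and 17.0 FPKM in input (0.46). STXBP2, the SM protein of granule release in blood cells and epithelia, stood at 37.7 FPKM in RIP and 27.5 FPKM in input (0.44). STXBP3, the SM partner of STX4, stood apart from these at 28.7 FPKM in RIP, against 29.2 FPKM in input (-0.03). STXBP6, the amisyn, was under the floor at 2.06 FPKM in RIP and 3.07 FPKM in input.

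The disassembly factors lay on both sides of 0. NSF, the ATPase that unwinds spent SNARE bundles, stood at 33.5 FPKM in RIP, against 28.9 FPKM in input (ratio 0.20), and its adaptor NAPA (alpha-SNAP) at 54.6 FPKM in RIP and 48.9 FPKM in input (0.16). NAPG (gamma-SNAP) stood at 19.8 FPKM in RIP and 21.3 FPKM in input (-0.10), and NAPB (beta-SNAP, mainly of brain) at 9.79 FPKM in RIP and 12.2 FPKM in input (-0.29). Their median was 0.03 as deposited, -0.10 after centring and -0.15 after rescaling. Of the 4 synaptotagmins measured, SYT9, a calcium sensor of exocytosis, had 9.06 FPKM in RIP, against 9.25 FPKM in input (-0.03), and SYT11, which does not trigger release with calcium, had 6.63 FPKM in RIP and 6.57 FPKM in input (0.01). SYT14 (4.98 FPKM in RIP and 4.61 FPKM in input) and SYT16 (2.68 FPKM in RIP and 1.62 FPKM in input) were under the floor. SNAP91 is taken by its symbol but encodes a clathrin assembly protein of synaptic vesicle recycling and no SNARE. It stood at 4.04 FPKM in RIP, against 5.63 FPKM in input (-0.40), and reached the floor in the input alone.

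Some of these values may include reads of other genes. For 30 of the 44 members under 1% of the 50-base words of the representative transcript also occur in a transcript of another gene, and for 24 of these none do. For 4 members at least 20% do. STXBP2 shares 51.5% of its words, NAPA 39.3%, NSF 33.7% and STX16 29.3%. The STX16 sequence is shared with the readthrough gene STX16-NPEPL1, which had 26.1 FPKM in RIP, against 7.96 FPKM in input, a ratio of 1.60. The NSF sequence is shared with its pseudogene NSFP1, at 52.5 FPKM in RIP, against 23.7 FPKM in input, a ratio of 1.11. How the authors' counting split such reads was not tested. Added together, NSF and NSFP1 stood at 85.9 FPKM in RIP, against 52.7 FPKM in input (0.70, against 0.20 for NSF alone), and STX16 with its readthrough at 109 FPKM in RIP and 60.3 FPKM in input (0.85, against 0.66). The NSF ratio is therefore uncertain. STX18 lies opposite STX18-AS1, which had 5.77 FPKM in RIP, against 7.81 FPKM in input, and SNAP23, SNAP29, SNAP47, STX3, STXBP4 and VTI1B also overlap genes on the other strand.

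Set out by the membrane fusion step they serve, partner genes had ratios wide apart in some complexes and close together in others. The 8 textbook complexes were listed after the values had been seen, several use the same gene (STX5, SEC22B and VAMP8), and no test was made. For release at the plasma membrane, STX1A (1.21) stood against VAMP2 (-0.38) in the neuronal complex, and STX4 (0.51) against SNAP23 (-0.14) and VAMP3 (-0.64) in the constitutive one. On the way from ER to Golgi, STX5 (0.38) and GOSR2 (0.10) stood against BET1 (-0.83) and SEC22B (-0.61). For endosomal carriers reaching the trans-Golgi network, STX16 (0.66) and VTI1A (0.64) stood against STX6 (-0.32). On late endosomes, VTI1B (0.34) and STX8 (0.53) stood against STX7 (-0.08) and VAMP8 (-0.20). On the way from Golgi to ER, STX18 (0.11) and USE1 (0.65) stood against SEC22B (-0.61). Ratios were closer on autophagosomes, with STX17 at 0.20, SNAP29 at -0.11 and VAMP8 at -0.20. Within the Golgi, STX5 had 0.38, GOSR1 0.12 and YKT6 -0.16. With 1 library a group, the smaller differences cannot be told from none. The Qa gene had a higher ratio than the R gene in 8 of 8 complexes, by 0.12 to 1.59, and the R gene had the lowest ratio in 6 of 8. These pairs draw on the Qa and R genes described above, so the counts repeat the difference between those classes. In the neuronal complex only STX1A and VAMP2 were compared. In the endosome to trans-Golgi network complex the R gene VAMP4 was under the floor, and the lowest was STX6.

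**Figure D3:**
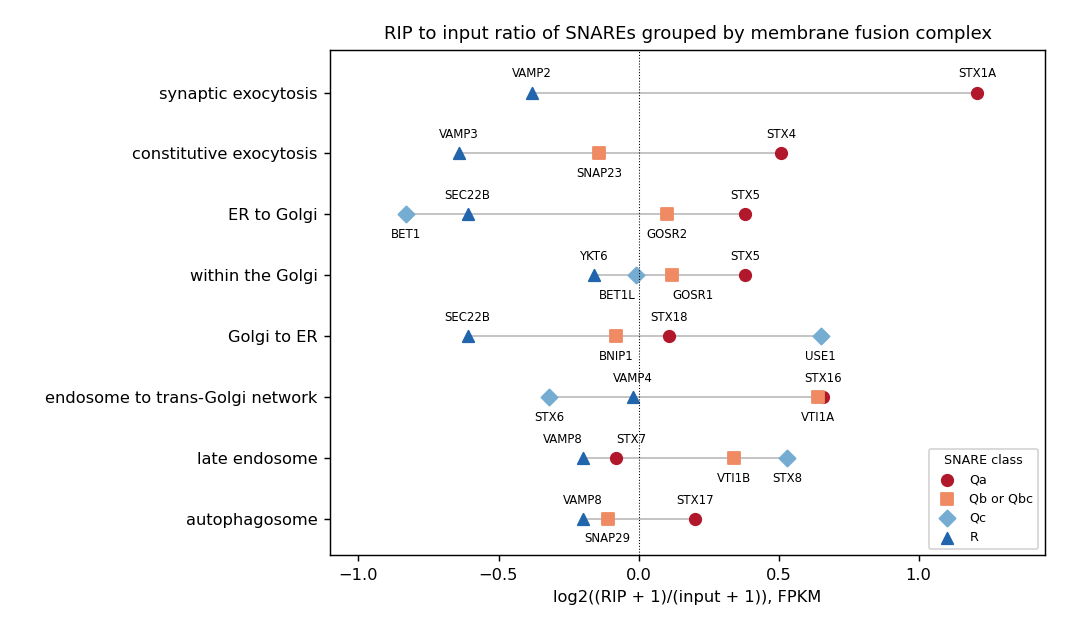
Ratio of RIP to input, log2((RIP + 1)/(input + 1)), of the SNARE genes of 8 fusion complexes, 1 row each, with symbols for the Qa, Qb or Qbc, Qc and R genes. STX5, SEC22B and VAMP8 appear in 2 rows each, and VAMP4 was under the floor. In all 8 rows the Qa gene (red circle) lies right of the R gene (blue triangle), by 0.12 to 1.59.

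The classes also differ in the coding length and exon number of their messages. The 7 R-SNAREs past the floor have a median coding length of 357 bases (303 to 663) and a median of 5 exons. The 10 Qa-SNAREs have 882 bases (786 to 1068) and 10.5 exons, and the 5 syntaxin binders 1782 bases and 19 exons. Across protein-coding genes as a whole the ratio was higher for longer coding parts, with a median of -0.25 in the shortest quintile (78 to 756 bases), 0.00 in the next (759 to 1200) and 0.52 in the longest (2580 to 26772). By exon number the medians were -0.22 for 1 to 5 exons and 0.55 for 19 to 182. As a description, Spearman's rho between ratio and coding length was 0.42 over the 40 members (Pearson's r 0.26), 0.59 over the 28 SNAREs among them (0.53) and 0.51 over 10490 coding genes (0.40). These points share both libraries and are not independent. Over the 434 coding genes with a single annotated transcript rho was 0.18. With the length of the whole transcript in place of the coding length, rho over the members was -0.15 for the median annotated transcript and -0.01 for the longest. With the number of annotated transcripts rho was 0.48 over the members and 0.32 over coding genes. All 40 members but SYT11 have more than 1 annotated transcript.

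When each gene was set against the median of its own coding-length quintile, the classes moved closer together. The R-SNAREs then had a median of -0.14, with 3 genes above their quintile and 4 below, against -0.38 before. BET1 and VAMP7, with short coding parts, still lay at -0.59 and -0.49 relative to their quintile, and VAMP3 at -0.39, while VAMP8 lay at 0.05. The Qa-SNAREs kept a median of 0.34 above, with 9 genes above and 1 below, since their coding lengths fall in a quintile whose median is 0.00. The syntaxin binders had a median of 0.15 above. By exon quintile the R-SNAREs had a median of -0.16, the Qa-SNAREs 0.22 and the binders -0.09. The part of coding length and exon number in the ratios of single genes was not tested.

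**Figure D4:**
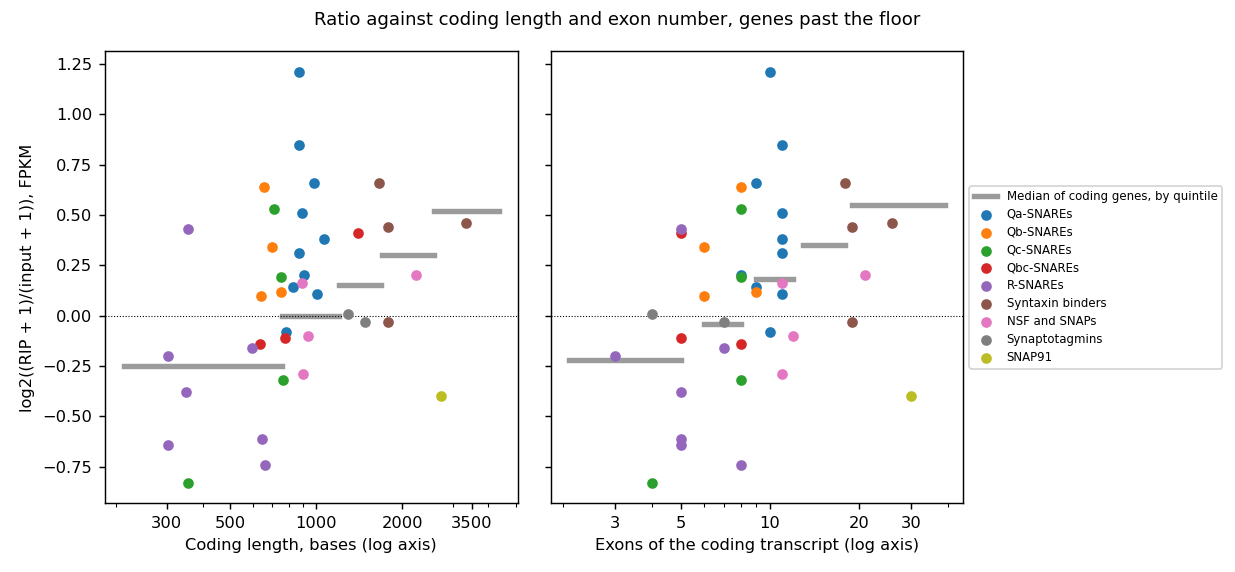
Ratio of RIP to input, log2((RIP + 1)/(input + 1)), against coding length in bases (left) and exon number (right), both on log axes, for the genes named in the text that passed the floor, coloured by role. Grey bars give the median of all protein-coding genes in each quintile, from -0.25 to 0.52 on the left and from -0.22 to 0.55 on the right, with the first and last bar cut near the members' range. The R-SNAREs lie at the short end and the syntaxin binders at the long end.

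Among tethers, which hold vesicles before SNAREs engage, 4 lists had higher median ratios than the SNAREs before coding length was considered. The coiled-coil tethers of the Golgi (12 genes, median 0.06) did not. In the 4 lists, which hold tether and SM genes, 35 of 38 genes had ratios above 0, against 7040 of all 11990 genes. Above the median gene lay 32 of the 38. Above the median of their coding-length quintile lay 28 of the 38, against 20 of the 28 SNAREs. The coiled-coil list is left out of this pool, so the pooled values describe the tether lists that were high. The median of the 38 was 0.63, against 0.13 for the 28 SNAREs. Of the 38, 1 (2.63%) was at least 2-fold higher, a share below the 4.90% of all genes and 3.65% of protein-coding genes. The medians of these lists stayed above 0, at 0.47 to 0.55 after centring and 0.43 to 0.51 after rescaling. These genes have long coding parts, with a median of 2374 bases against 752 for the SNAREs. Set against their length quintiles the medians were 0.24 for the 4 lists together and 0.23 for the SNAREs. By exon quintile they were 0.22 and 0.12. Among SM proteins and the HOPS and CORVET tethers of endosomes and lysosomes (13 genes, median 0.60), VPS39 stood at 33.0 FPKM in RIP, against 16.1 FPKM in input (0.99) and VPS45, the SM protein of STX16, at 67.0 FPKM in RIP and 36.9 FPKM in input (0.84). The lowest of that list were SCFD1, the SM protein of STX5, at 64.2 FPKM in RIP and 59.3 FPKM in input (0.11) and VPS33A at 11.8 FPKM in RIP and 12.3 FPKM in input (-0.05).

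In the exocyst, the tether of secretory vesicles at the plasma membrane (9 genes, median 0.65), EXOC3 stood at 54.2 FPKM in RIP, against 25.3 FPKM in input (1.07) and EXOC7 at 80.7 FPKM in RIP and 41.6 FPKM in input (0.94). EXOC5, at 39.5 FPKM in RIP and 40.7 FPKM in input (-0.04), and EXOC8, at 11.0 FPKM in RIP and 14.4 FPKM in input (-0.36), lay below 0, and the EXOC8 transcript has 1 exon. All 8 genes of the COG tether of the Golgi had ratios above 0, or 6 of 8 after centring or rescaling (median 0.63), from COG8 (0.08) and COG3 (0.12) to COG4 (0.80) and COG1 (0.83). All 8 of the GARP, EARP and Dsl1 tethers had ratios above 0 under each scaling (median 0.68), from VPS54 (0.27) and ZW10 (0.47) to VPS52 (0.78) and VPS51 (0.98). The coiled-coil tethers of the Golgi had a median of 0.06 over 12 genes, which turned to -0.07 after centring and -0.11 after rescaling. Set against their length quintiles their median was -0.22, with 2 genes above and 10 below. GOLGA2 (0.65) and GOLGA4 (0.47) were the highest there, and GOLGA5 (-0.11) and GORASP2 (-0.21) the lowest.

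The lists of presynaptic release regulators and synaptic vesicle proteins held genes on both sides of 0. Of 29 listed presynaptic release regulators 12 passed the floor, with a median of 0.52 and 10 genes above 0 (8 after rescaling). PPFIA4 and RIMS2 reached the floor in the RIP alone, so the floor itself favours a high ratio for them. PPFIA4 and ERC2, scaffolds of the active zone, stood at 5.06 FPKM in RIP, against 1.58 FPKM in input (1.23) and at 13.9 FPKM in RIP and 5.95 FPKM in input (1.10). SNAPIN, a small protein that binds the SNAP25 family, stood at 20.2 FPKM in RIP and 28.5 FPKM in input (-0.47). PCLO, a giant scaffold of the active zone, stood at 4.15 FPKM in RIP and 5.34 FPKM in input (-0.30). PCLO reached the floor in the input alone, so the floor itself favours a low ratio for it. Of 17 listed synaptic vesicle proteins 6 passed the floor and 5 lay below 0, or 6 after centring or rescaling (median -0.17). SYPL1 and SYNGR2, relatives of synaptophysin and synaptogyrin with short coding parts, stood at 17.3 FPKM in RIP and 34.3 FPKM in input (-0.95) and at 19.8 FPKM in RIP and 30.8 FPKM in input (-0.61). DNAJC5, the chaperone of SNAP25, had 0.05 and SYNJ1, a lipid phosphatase of vesicle recycling, had -0.05. Against their length quintiles the release regulators had a median of 0.01 and the vesicle proteins -0.38.

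A further 6 SNARE genes bear names outside the rule. Their median was -0.04. TSNARE1, a syntaxin-like gene, stood at 8.06 FPKM in RIP, against 2.74 FPKM in input (1.28), reaching the floor in the RIP alone, and USE1, the Qc-SNARE that partners STX18 on the ER, at 27.3 FPKM in RIP and 17.0 FPKM in input (0.65). SEC22A (-0.17) and SEC22C (-0.14), relatives of SEC22B, lay below 0 as SEC22B did, by less.

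**Figure D5:**
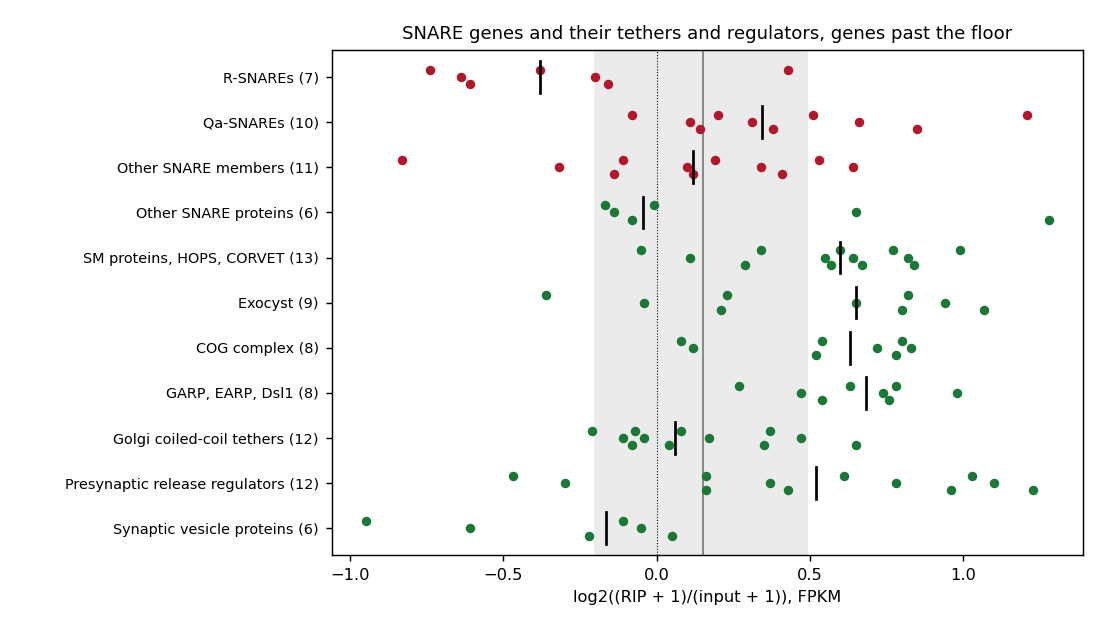
Ratio of RIP to input, log2((RIP + 1)/(input + 1)), of single genes past the floor in the SNARE classes (red) and in lists of tethers, regulators and vesicle proteins (green), with the number of genes in brackets and a black bar at each median. The grey band and line give the quartiles and median of protein-coding genes. The medians of 4 lists of tether and SM genes lie between 0.60 and 0.68, and that of the Golgi coiled-coil tethers at 0.06. Those of the R-SNAREs and synaptic vesicle proteins lie at -0.38 and -0.17.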

How the data were processed

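The authors deposited 1 table of FPKM, normalized by them for transcript length and library total, with 1 value per gene and library. The unit is not named there and was read from the values and the named tools. Abundant RNAs thus lower the FPKM of every other gene in their library. The sums were 1090243 (RIP) and 1512049 (input). Per the submitters' processing notes, the tools were cutadapt 1.18, Trimmomatic 0.3, STAR 2.6.1 and RSEM 1.2.31, with the build hg38. For their settings, annotation release and use of strand the entry is: not given in the sources used here. Gene names spread over several columns in 36 rows were rejoined.

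Ratios were log2((RIP + 1)/(input + 1)), in FPKM, over the whole table. Genes reaching 5 FPKM in either library were kept (11990), and genes at least 2-fold apart were counted. No test was made, since each group had 1 library. The members were named, except 1 that is not reported here, and the 2 highest and 2 lowest genes of each other list. The members, roles and lists were chosen with earlier results of these data known.

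Depth was the number of fragments and mean fragment length that best made the FPKM of single-transcript genes whole fragments. This gave 24700000 fragments of 168 bases for the RIP and 15100000 of 164 bases for the input. Of the genes used, 68.5% (RIP, 184 genes) and 68.5% (input, 203 genes) then fell within 0.15 of a whole fragment, against 43.7% and 40.6% when lengths were shuffled between genes. The search was checked on simulated data. Fragment numbers of genes use the median annotated transcript length, and are approximate. On 2000 bases, 5 FPKM equals about 226 RIP fragments or 139 input fragments.

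GENCODE 29 (GRCh38) was matched by Ensembl identifier for 12983 of 13075 genes (99.3%) and all 44 members. The transcript standing for a gene was the APPRIS principal one with a complete coding part, a choice revised after values were seen. Sequences were read from its transcripts. The alternatives were other pseudocounts, floors, fold limits and scalings. Leaving out members that share sequence, requiring 100 estimated fragments, and the longest coding transcript were added after seeing the data. Python 3.11.15, numpy 2.4.6, pandas 2.3.3, scipy 1.17.1 and matplotlib 3.10.9 were used.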

Additional observations from a re-analysis of the deposited data

How the results depend on the processing

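No paired analysis was possible because there was 1 RIP and 1 input library. DESeq2 size factors were planned only for counts and were not run. The count of members at least 2-fold higher, 1 (STX1A), was 0 with a pseudocount of 5 FPKM, with a floor of 20 FPKM, at a 4-fold limit, and, as an alternative added after seeing the data, with at least 100 estimated fragments in both libraries. The higher floor and the fragment limit leave STX1A out. With a pseudocount of 5 FPKM its ratio was 0.89, under the 2-fold limit, and its main ratio of 1.21 lies under the 4-fold limit. At a 1.5-fold limit the count of higher members was 6, and the count of members at least 2-fold lower, 0, was 4. Over all genes the 588 higher and 300 lower became 300 and 180 with a pseudocount of 5 FPKM, 352 and 157 with a floor of 20 FPKM, 2386 and 1222 at 1.5-fold, and 79 and 84 at 4-fold. Centring on the median gene, a shift of -0.13, left 365 higher, and rescaling to summed protein-coding FPKM (log2 shift -0.18) gave 308 higher and 498 lower. The median of all genes, 0.13, was 0.10 with a pseudocount of 5 FPKM, 0.21 with a floor of 20 FPKM, 0.00 after centring and -0.04 after rescaling.

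The members' own median was 0.00 after centring and -0.04 after rescaling. The R-SNARE median was -0.51 after centring and -0.54 after rescaling. In both 6 of 7 genes lay below 0, which is no check, since neither scaling raises a ratio. The Qa-SNARE median was 0.22 and 0.17, with 8 and 7 of 10 genes above 0. The Qa-SNARE median was 0.31 without members that share sequence. The disassembly median, 0.03, was -0.20 without those members. Among single members 143 of 160 alternative ratios stayed within their counting interval and 17 did not. These alternatives change the pseudocount or shift all genes together, which counting error does not measure. Genes with few fragments have wide intervals and stay within them more easily, so the count is no measure of robustness. With the longest coding transcript, Spearman's rho with coding length was 0.39 over the members and 0.53 over the SNAREs.

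Each library stands alone, so counting error is the least the values carry, and the spread between repeat experiments is unknown. Depth was inferred, the transcript lengths the authors used are not known here, and fragment numbers of genes with several transcripts are approximate.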
